A study of Mus musculus with 23 samples.

Results

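The step from 8 h to 24 h after a dose of a Smoothened antagonist was examined in mouse medulloblastoma by comparing 3 arrays of tumours taken at 24 h with 3 arrays of tumours taken at 8 h, 6 of the 23 arrays of the series. All were of genotype Ptch+/-HIC+/-, carried the tumour status Sensitive in the labels and came from mice given NVP-LDE225 at 40 mg/kg. Cells taken straight from such tumours had been placed under the skin of the right flank of nu/nu mice, which lack mature T cells, so each tumour also held vessels, connective tissue and immune cells of the host. The 3 arrays at 4 h and the 3 at 48 h of the same dose served to compare this step with its neighbours. All 8 groups of the series entered 1 alternative fit. They included tumours described as resistant, 3 arrays at 40 mg/kg and 3 at 160 mg/kg. Levels in the 3 vehicle arrays with no stated time are given as background. The series also holds 2 vehicle arrays labelled 4 h, whose levels are given only where stated. No array is labelled as a vehicle at 8 h or 24 h, so drug time and time of day cannot be told apart. The source label calls all 3 tumours of 8 h and replicate 1 of 24 h resistant. Their description and tumour status put them among sensitive tumours, which was followed. The labels name neither the number of donor tumours nor whether each replicate was its own animal. The p-values therefore weigh only the spread among these arrays, which may be technical. The identifier numbers in the titles fall in 1 run for the 8 h arrays and replicate 1 of 24 h, and in another for replicates 2 and 3 of 24 h.

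Medulloblastoma of this kind grows from granule neuron progenitors of the cerebellum. The ligand Sonic hedgehog, secreted by Purkinje cells, normally binds Patched 1 (Ptch1) and so frees Smoothened, which leads GLI transcription factors to switch on genes that keep these cells dividing. When the signal ends, progenitors leave the cell cycle, express neuronal proteins, extend axons and migrate. Tumours that have lost Patched 1 signal without ligand, and an antagonist of Smoothened acts below that lesion. The progenitor and neuronal genes of this lineage were present at both times, with Zic1, a transcription factor of granule cells, at 5119.7 to 5879 at 8 h and 7214 to 9201 at 24 h.

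The promoters of 6 genes from the groups described below are shown first, as examples picked by name. Matches to 2 short motifs are marked, and their share among promoters of each group follows. Each line gives the 150 bases before the gene's start in RefSeq (build GRCm38.p6), 5′ to 3′ along the gene's strand, with capitals at a CCAAT box (CCAAT, or ATTGG on the other strand) or at a cell cycle homology region (TTTGAA or TTTAAA, or TTCAAA for the first on the other strand). Ube2c lies at chr2:164769779-164769928 (plus strand), Cdc20 at chr4:118437344-118437493 (minus strand), Ccnb2 at chr9:70421555-70421704 (minus strand), Top2a at chr11:99024190-99024339 (minus strand), Rrm2 at chr12:24708104-24708253 (plus strand) and Neurod1 at chr2:79456637-79456786 (minus strand).
Ube2c: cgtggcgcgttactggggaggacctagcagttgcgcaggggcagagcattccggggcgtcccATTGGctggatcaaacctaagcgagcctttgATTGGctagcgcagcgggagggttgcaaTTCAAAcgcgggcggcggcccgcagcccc
Cdc20: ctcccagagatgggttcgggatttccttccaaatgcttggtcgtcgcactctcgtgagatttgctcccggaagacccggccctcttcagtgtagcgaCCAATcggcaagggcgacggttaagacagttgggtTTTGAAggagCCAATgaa
Ccnb2: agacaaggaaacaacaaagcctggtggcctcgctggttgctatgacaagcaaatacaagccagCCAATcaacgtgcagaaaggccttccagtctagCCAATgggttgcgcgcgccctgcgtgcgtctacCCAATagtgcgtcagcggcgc
Top2a: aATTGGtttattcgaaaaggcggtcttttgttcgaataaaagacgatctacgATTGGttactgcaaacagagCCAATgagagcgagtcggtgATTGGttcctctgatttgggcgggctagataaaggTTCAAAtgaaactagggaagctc
Rrm2: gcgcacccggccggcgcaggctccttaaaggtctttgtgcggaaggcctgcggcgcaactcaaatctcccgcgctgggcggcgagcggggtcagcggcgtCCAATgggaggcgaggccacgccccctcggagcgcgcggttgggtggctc
Neurod1: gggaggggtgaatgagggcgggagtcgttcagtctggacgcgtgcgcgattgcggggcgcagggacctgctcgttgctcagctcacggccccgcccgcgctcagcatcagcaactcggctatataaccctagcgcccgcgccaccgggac
The first 4 are mitotic genes and hold 2, 2, 3 and 4 CCAAT boxes, whereas Rrm2, an S phase gene, holds 1 and Neurod1, a neuronal transcription factor, holds none in these bases. Over the 250 bases before each start, on both strands, a CCAAT box stood in 36 of 49 promoters of the mitosis list (73.5%), in 27 of 45 of the DNA replication list (60%), in 22 of 44 of the neuronal differentiation list (50%) and in 33.8% of all 32851 promoters of the table. TTTGAA stood in 34.7%, 15.6%, 6.82% and 16% of the same sets, and TTTAAA in 12.2%, 6.67%, 13.6% and 12.1%. Either form together with a CCAAT box stood in 40.8% of mitosis promoters and 8.78% of all. At least 2 CCAAT boxes stood in 44.9% of mitosis, 31.1% of replication, 25% of neuronal and 10.1% of all promoters. The 4 mitotic examples all hold 2 or more, unlike most of their list. The 2 E2F forms searched, TTTCCCGC and TTTGGCGC, each stood in 6.67% of replication promoters, against 0.895% and 0.417% of all. For mitosis they stood in 0% and 2.04%. The proneural E-box CAGATG was in 20.5% of neuronal promoters and 14.4% of all, its other form CAGCTG in 13.6% and 13%, and the GLI site TGGGTGGTC in 2.04% of mitosis promoters, none of the other 2 lists and 0.225% of all. Entries matched 47 of 58 mitosis, 37 of 45 replication and 27 of 37 neuronal genes, and a gene can have several promoters. A match describes these letters only, and lists were not tested against the table.

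Many probe sets moved each way between 8 h and 24 h, and more fell than rose beyond 4-fold. Values are MAS5 signal, analysed as log2(signal + 16), which understates changes of low genes. Probe sets above the 40th percentile of their own array on at least 3 of the 6 arrays were tested, so that a gene could enter through the arrays of 1 time alone, and its difference is then against a level near background. Of the genes named here, Prph, Gldc and Hrk lay below the 40th percentile on every 8 h array, and Hhip and Wif1 on every 24 h array. Of 27424 probe sets tested with limma, 7555 (27.5%) passed a Benjamini-Hochberg adjusted p of 0.05. Of these, 4177 (15.2% of those tested) were higher at 24 h and 3378 (12.3%) were lower. Which direction had more calls depended on the processing, with 3529 higher and 3497 lower after quantile normalization, 2615 and 2669 when all 8 groups of the series shared the fit, and 2113 and 2378 with replicate 1 of 24 h alone. Of the 7555, 7416 had groups that did not overlap, which largely follows from a call on 3 against 3 arrays and is no separate support. Beyond 4-fold, 63 rose and 192 fell, and beyond 8-fold 6 rose and 60 fell. The median over all tested probe sets was 0.07 on the log2 scale. The 12283 genes tested, each by 1 probe set, gave 2165 higher (17.6%), 1736 lower (14.1%) and a median of 0.06. Counts of every list below are to be read beside these shares. RNA integrity and scaling moved with the comparison: the actin control signal of the 3′ end over that of the 5′ end, as a log2 ratio, was 1.26 ± 0.08 (SD, n = 3) at 8 h and 1.65 ± 0.22 (SD, n = 3) at 24 h, that of Gapdh rose from 0.07 ± 0.14 to 0.64 ± 0.19 (SD, n = 3 each), and the arrays' median signal ran from 36.5 to 38.4 at 8 h and from 41 to 46 at 24 h. Their part in the results was not tested. In bulk tumour, fewer cells of a type and less RNA per cell cannot be told apart. In the plot of gene lists, mitosis lies far below every other list drawn and skeletal muscle far above.

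**Figure D1:**
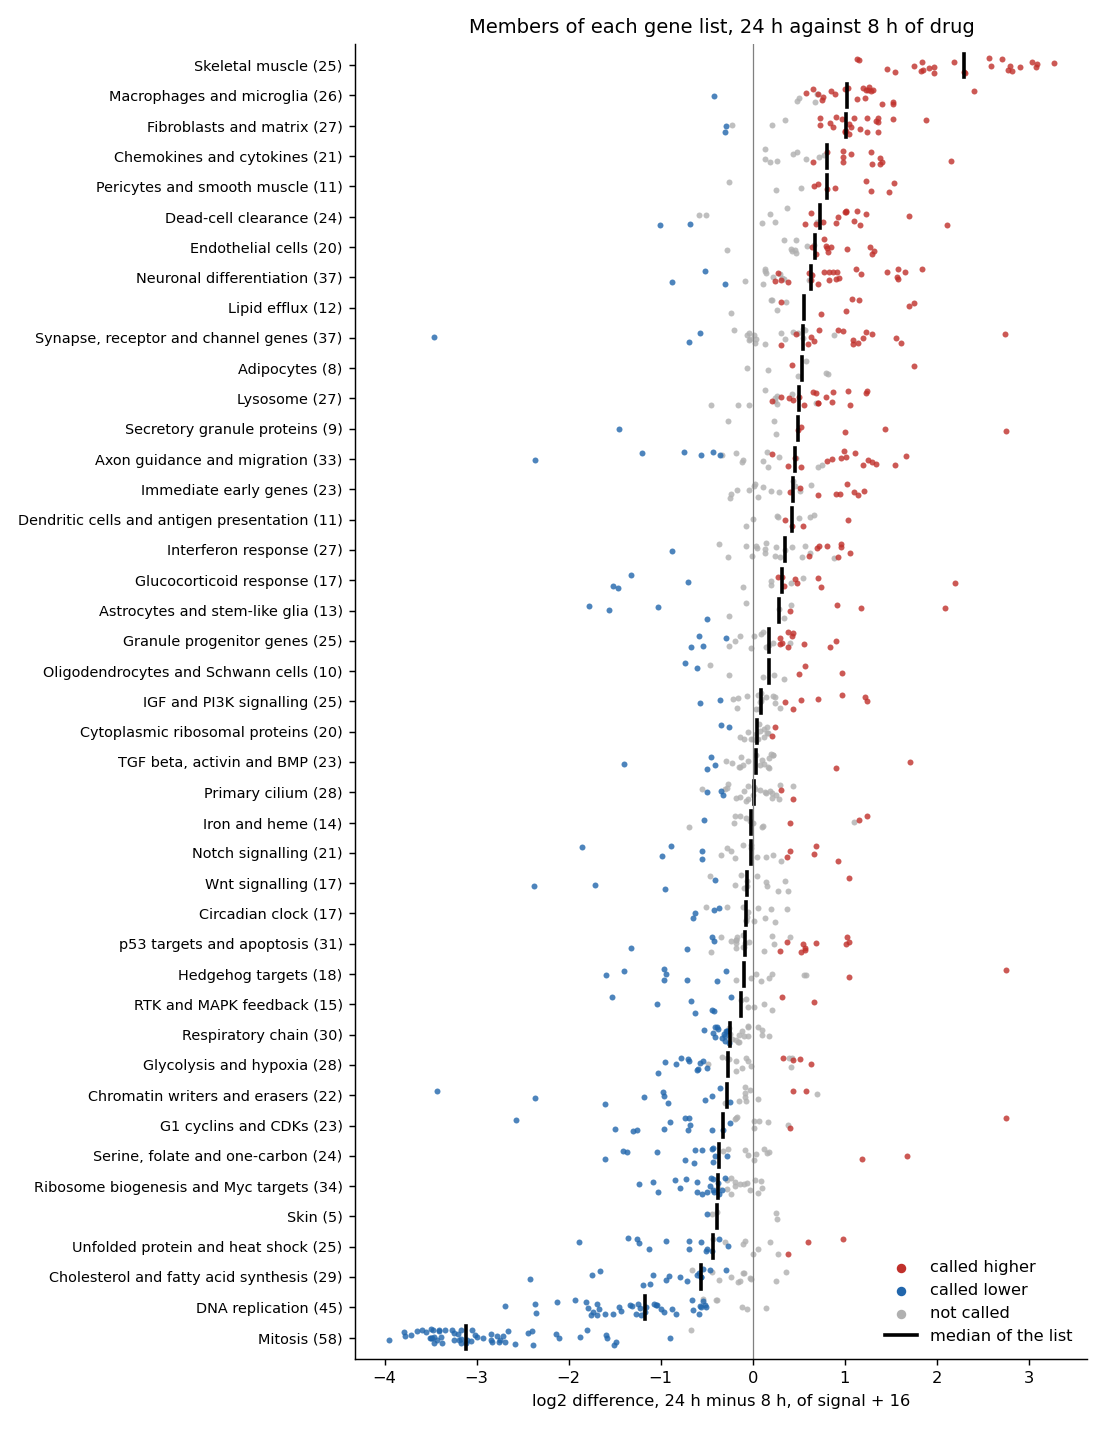
Log2 difference between 24 h and 8 h (horizontal axis, signal plus 16) of each tested gene in each list of at least 5 tested genes; red points passed higher, blue points passed lower, grey points did not pass, and black bars are medians. Mitosis has its median at -3.11 and skeletal muscle at 2.30, against 0.06 over all 12283 genes.

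Mitotic genes fell steeply between 8 h and 24 h. Of 60 genes listed, 59 were on the array and 58 tested. At 24 h, 57 were lower and none higher, where 14.1% of all genes tested were lower. The median log2 difference was -3.11. Of the 58, 50 fell beyond 4-fold and 33 beyond 8-fold. The list's summed signal was 72796 to 74651 at 4 h, 63732 to 65956 at 8 h and 7887 to 9126 at 24 h. In vehicle arrays it was 71212.5 to 72883.9. Ube2c, the ubiquitin-conjugating enzyme of the anaphase-promoting complex, read 3395, 3211 and 2797 at 8 h and 212, 154 and 198 at 24 h. The highest 24 h value was far below the lowest 8 h value, a difference of -3.96 ± 0.11 (SE), adjusted p = 1.8e-10, or 15.5-fold lower. Mki67, the proliferation antigen of dividing cells, read 3715, 4144 and 4319 at 8 h and 372, 304 and 362 at 24 h. The 2 groups were again widely apart (-3.49 ± 0.09 (SE), adjusted p = 1.1e-10), and the 8 h values lay somewhat below those of the vehicle arrays (4735 to 4859.9). Top2a, the topoisomerase that untangles sister chromosomes, read 3091, 3041 and 3118 at 8 h and 304, 199.9 and 252 at 24 h. The 2 groups lay far apart (-3.55 ± 0.12 (SE), adjusted p = 4e-10).

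Cyclins, kinases, checkpoint and spindle genes all took part. Ccnb2, the cyclin B2 partner of Cdk1, read 1178, 1222 and 1229 at 8 h and 87.3, 107 and 91.5 at 24 h, and Cdk1 itself, the kinase that starts mitosis, read 1722, 1694 and 1718 at 8 h and 135, 81.9 and 183 at 24 h. Neither gene's groups overlapped (-3.47 ± 0.10 (SE) and -3.59 ± 0.19 (SE), adjusted p = 1.8e-10 and 2.2e-08). Cdc20, the activator of the anaphase-promoting complex, read 1254, 1323 and 1215 at 8 h and 84.5, 58.5 and 112 at 24 h (-3.70 ± 0.16 (SE), adjusted p = 3.5e-09). Among other members, with log2 differences in parentheses, lower genes were the checkpoint kinase Bub1 (-3.79), the kinetochore protein Cenpf (-3.77) and the spindle pole protein Aspm (-3.26). Of the 15 largest falls of all, 12 belonged to this list. The other 3 were Hmgb2, a chromatin protein abundant in dividing cells (-4.48), Pclaf, the PCNA clamp-associated factor (-3.73), and the spindle protein Dlgap5 (-3.72). For this ranking a gene stood by its probe set of largest change, and in lists by that of highest mean log2 signal. By the latter rule, no tested gene of the chromatin list, Hmgb2 included, was below -3.43. Mybl2, the B-Myb factor of the G2 programme, was the only mitosis gene tested that did not pass. It was chosen for mention after its values were seen, and read 40.1, 56.2 and 37.6 at 8 h and 32.8, 23.3 and 11.9 at 24 h, low at both times, with the 24 h values below those of 8 h (-0.67 ± 0.28 (SE), adjusted p = 0.097). The promoters of Ube2c, Cdc20, Ccnb2 and Top2a shown above belong to this group.

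**Figure D2:**
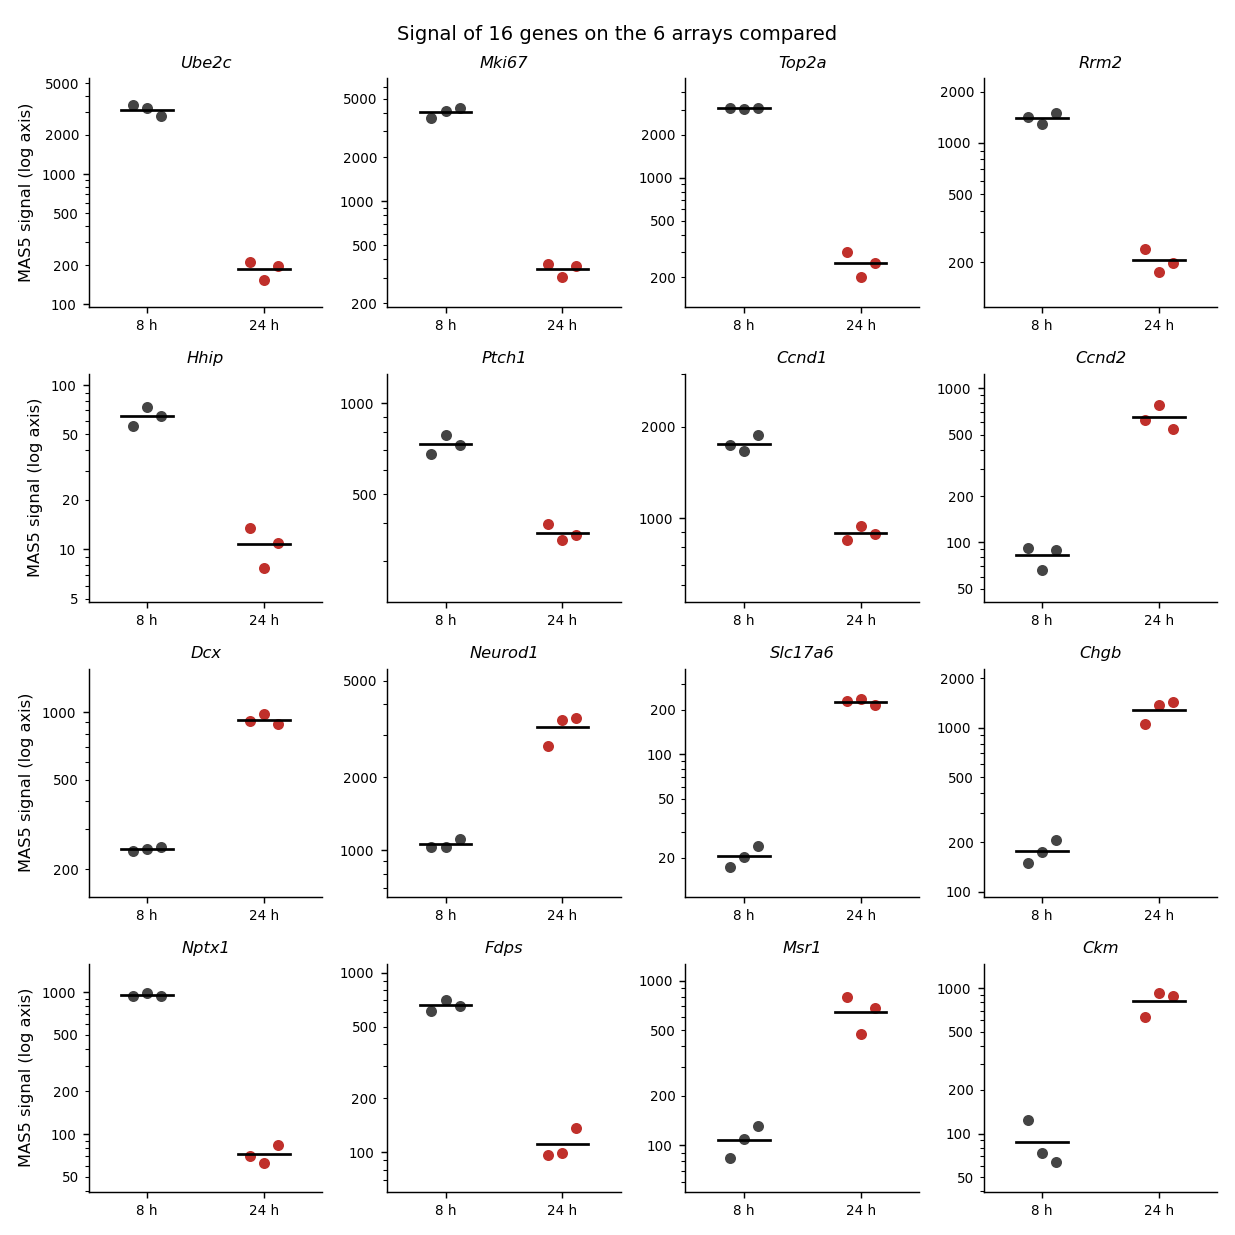
MAS5 signal (log axis) of 16 named genes on each array, with grey points for the 3 arrays at 8 h, red points for the 3 at 24 h and a bar at each mean. The genes range from Ube2c (15.5-fold lower) to Ckm (higher by 3.03 on the log2 scale of signal plus 16). The groups do not overlap, but apart from those fixed by name, these genes were chosen for lack of overlap or small p.

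Genes of DNA replication fell less and had already been falling. Of 48 listed, 45 were on the array and tested, and 39 were lower at 24 h with none higher and a median of -1.16. Only 4 fell beyond 4-fold and none beyond 8-fold. Rrm2, the small subunit of ribonucleotide reductase, which supplies deoxynucleotides, read 1419, 1291 and 1494 at 8 h and 239.6, 176 and 199 at 24 h, with no overlap (-2.69 ± 0.11 (SE), adjusted p = 2.8e-09). Uhrf1, which carries DNA methylation across replication, read 506, 523 and 531 at 8 h and 95.3, 81.2 and 88.8 at 24 h, again with the groups far apart (-2.36 ± 0.11 (SE), adjusted p = 8.3e-09). Pcna, the sliding clamp of DNA polymerases, read 2179, 2415 and 2394 at 8 h and 992, 879 and 912 at 24 h. All 24 h values were below those of 8 h (-1.31 ± 0.08 (SE), adjusted p = 8.4e-08). Also lower were Rrm1, the large reductase subunit (-1.93), the primase subunit Prim1 (-1.79) and Dut, which removes dUTP (-1.52). The 6 tested replication genes that did not pass were Gins3, Tyms, Orc1, Pola2, Rfc3 and Fen1, all chosen for naming by that outcome. The list's summed signal was 40867 to 45614 at 4 h, 22462 to 23491 at 8 h and 10258 to 11033 at 24 h, against 44971 to 49186 in vehicle arrays.

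Genes around G1 were more often lower than higher. Of 23 tested genes of G1 cyclins, kinases and E2F factors, 13 were lower and 2 higher, with a median of -0.32. The E2F repressors E2f8 and E2f7, themselves induced by E2F late in G1, fell (-2.57 and -1.49), as did E2f1 (-0.90), the pocket protein Rbl1 (-1.26) and Cdkn2d, an inhibitor of Cdk4 (-1.30). Ccnd2, cyclin D2, went the other way and read 92.2, 66.1 and 89.1 at 8 h and 625, 779 and 548 at 24 h. Every 24 h value was far above the highest 8 h value (2.76 ± 0.15 (SE), adjusted p = 3e-08), and all 6 tested probe sets of the gene were higher. Among 22 tested chromatin genes, 11 were lower and 2 higher (median -0.28). The lower ones included Lmnb1, a nuclear lamina protein of cycling cells (-1.60), the histone variant gene H2az1 (-1.18), the maintenance methyltransferase Dnmt1 (-0.96) and Ezh2, the catalytic subunit of Polycomb complex 2 (-0.92).

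Targets and other genes of Hedgehog signalling were split, and the best known targets were already below vehicle levels at 8 h. Of 23 listed genes, 22 were on the array and 18 tested. Of these, 8 were lower and 2, Ccnd2 and Sfrp1, were higher, with a median of -0.10. The list is not of targets alone and also holds co-receptors and transducers, among them Cdon, Boc, Gas1, Gli2 and Gli3. Gli1, the pathway's inducible activator and usual readout, was too low to test. It read 4.7, 23.5 and 3.4 at 8 h and 11.5, 2 and 47.6 at 24 h, against 631 to 710 in vehicle arrays, and the groups overlapped. Ptch1, receptor and target in 1, read 679.7, 784 and 729 at 8 h and 398, 353 and 367 at 24 h. The groups did not overlap (-0.94 ± 0.09 (SE), adjusted p = 7.9e-06), and both lay below vehicle (2513 to 2831). Another probe set of Ptch1 did not pass (-0.32, adjusted p = 0.14), and the remaining one was too low to test. Hhip, a decoy receptor induced by the pathway, read 56.1, 73.4 and 64.4 at 8 h and 13.5, 7.7 and 11 at 24 h, with all 24 h values below both those of 8 h and the 40th percentile of their arrays (23.9 to 28.6). The size of its fall depends on the offset, with -2.51 at an offset of 1, -1.59 at 16 and -0.78 at 64. Its other 2 tested probe sets, both dim, did not pass (-0.47 with adjusted p = 0.24, and -0.41 with adjusted p = 0.43).

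Cyclin D1 fell, and Mycn did not pass the test. Ccnd1, the D-type cyclin of these progenitors, read 1739, 1667 and 1876 at 8 h and 848, 940.2 and 888 at 24 h, and no 24 h value reached 8 h levels (-0.97 ± 0.08 (SE), adjusted p = 1.5e-06, with all 3 probe sets lower). Gli2, the main activator downstream of Smoothened, read 484, 423 and 488 at 8 h and 387, 369 and 378 at 24 h. The small gap passed (-0.29 ± 0.09 (SE), adjusted p = 0.038) but was lost in several alternative fits, with adjusted p = 0.15 when all 8 groups of the series shared the fit. The other tested probe set of Gli2 also passed (-0.58 ± 0.15 (SE), adjusted p = 0.0099). It read 226.7 to 256.9 at 8 h and 131.2 to 195.7 at 24 h. Mycn, the growth-promoting factor that Hedgehog signalling sustains, read 816, 748 and 757 at 8 h and 867, 908 and 704 at 24 h, with overlapping groups (0.09 ± 0.10 (SE), adjusted p = 0.57, 95% interval -0.13 to 0.30). Sfrp1, a secreted Wnt antagonist, read 843, 670.2 and 740 at 8 h and 1548, 1672 and 1471 at 24 h. The groups were apart in the upward direction (1.05 ± 0.09 (SE), adjusted p = 3.4e-06), as were all 5 of its tested probe sets. Follistatin, Fst, which binds activin, and Cdon, a Hedgehog co-receptor, both fell (-1.40 and -0.96).

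Most of the neuronal genes tested rose. Of 42 listed genes of neuronal differentiation, all were on the array and 37 tested. Of these, 23 were higher and 3 lower, where 17.6% of all genes tested were higher. The median was 0.63. Relative to the 8 h arrays, the list's median was -0.83 to -0.75 in the 3 vehicle arrays with no stated time. In the 2 vehicle arrays labelled 4 h it was -0.30 and -0.24. Dcx, doublecortin, a microtubule protein of migrating neurons, read 241, 245 and 252 at 8 h and 911, 976 and 884 at 24 h. The 24 h values were tightly grouped above those of 8 h (1.84 ± 0.09 (SE), adjusted p = 1e-08). Neurod1, the transcription factor that drives granule neuron differentiation, read 1029.9, 1031 and 1116 at 8 h and 2688, 3448 and 3506 at 24 h, again with no overlap (1.58 ± 0.10 (SE), adjusted p = 1.1e-07), and stood at 284 to 336 in vehicle arrays. The axonal adhesion molecules Cntn2 and L1cam rose by 1.66 and 1.57, and the growth cone proteins Gap43 and Basp1 by 1.46 and 1.12. Dpysl4, a collapsin response mediator, fell by 0.87. Prph, peripherin, an intermediate filament of peripheral neurons and not on the list, read 15.7, 1.9 and 6.9 at 8 h and 225, 148 and 236 at 24 h. All 8 h values lay below the 40th percentile of their arrays (20.6 to 23.1), so the log2 difference depends on the offset, with 4.78 at an offset of 1, 3.19 at 16 and 1.87 at 64. Its other probe set was not called. When all 8 groups shared the fit, 13 genes of this list remained called higher and 1 lower.

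Synaptic and secretory genes gave a similar balance with 1 large exception. Of 58 listed synaptic and transmitter genes, 49 were on the array and 37 tested, with 17 higher, 3 lower and a median of 0.55. With all 8 groups in the fit, 8 were higher and 3 lower. Slc17a6, the vesicular glutamate transporter 2 of young granule neurons, read 17.4, 20.1 and 23.9 at 8 h and 229, 237 and 215 at 24 h, low at 8 h and far above that on every 24 h array (2.74 ± 0.16 (SE), adjusted p = 8.4e-08). The nicotinic receptor subunits Chrnb4 and Chrna3 rose by 1.61 and 1.56, and the release proteins Syt1 and Snap25 by 1.29 and 1.20. Nptx1, neuronal pentraxin 1, a secreted protein that gathers glutamate receptors, was the exception and read 939, 989 and 935 at 8 h and 70, 62.7 and 84 at 24 h. Its 24 h values were all far below those at 8 h (-3.47 ± 0.11 (SE), adjusted p = 4e-10), after 1893 to 2171 at 4 h and 4582 to 5053 in vehicle. Grin2c, a receptor subunit of mature granule cells, and Cbln1, their synaptic organiser, also fell (-0.69 and -0.57). Of 9 tested genes of dense-core secretory granules, 5 rose and 1 fell (median 0.49). Chgb, secretogranin 1, read 149, 174 and 207 at 8 h and 1054, 1365 and 1430.4 at 24 h, with a wide gap between the groups (2.75 ± 0.13 (SE), adjusted p = 1.1e-08). Scg3, a granule sorting protein, rose by 1.44, while the peptide gene Cck fell by 1.45.

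Guidance and migration genes changed in both directions. Of 33 tested, 16 were higher (48.5%) and 6 lower (18.2%), beside 17.6% and 14.1% over all genes tested, with a median of 0.46. The netrin receptor Dcc rose by 1.55, the ephrin receptor Ephb1 by 1.34, the semaphorin Sema3c by 1.26 and its receptor Nrp1 by 1.20. Both reelin receptors fell: Lrp8 read 215, 182 and 184 at 8 h and 36.9, 10.8 and 30.7 at 24 h, without overlap (-2.37 ± 0.24 (SE), adjusted p = 8.8e-06), and Vldlr fell by 1.20. Plxna2, a plexin of migrating granule cells, fell by 0.74.

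Genes of progenitor identity were abundant at both times. Of 25 tested granule progenitor genes, 10 were higher (40%) and 4 lower (16%), with a median of 0.18. The lower share is near the 14.1% over all genes tested. Atoh1, the factor that defines these progenitors, read 4533, 4899 and 4965 at 8 h and 3823, 3939 and 3962 at 24 h. The 24 h values were lower by a small margin (-0.29 ± 0.07 (SE), adjusted p = 0.006), a call lost under 4 alternatives. Zic1 read 5495, 5119.7 and 5879 at 8 h and 7214, 9201 and 8048 at 24 h, with all 24 h values above those of 8 h (0.56 ± 0.09 (SE), adjusted p = 0.00047). The bHLH inhibitor Id3 rose by 0.91, and Hes6, a proneural cofactor, fell by 0.67. Glial and stem-like markers had no common direction, with 4 higher and 4 lower of 13 tested. Prom1, prominin 1, read 1174, 1457 and 1236 at 8 h and 358, 393 and 342 at 24 h, the 24 h values all below 400 (-1.77 ± 0.10 (SE), adjusted p = 4.1e-08), and S100b fell by 1.56. Gfap, the intermediate filament of reactive astrocytes, read 37.8, 69 and 41.2 at 8 h and 213, 286 and 275 at 24 h. The 24 h values were above all those of 8 h (2.09 ± 0.19 (SE), adjusted p = 3.9e-06), with 24.3 to 33.7 at 48 h and 17.7 to 33.9 in vehicle arrays.

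Signalling pathways other than Hedgehog had called members in both directions, set here beside 17.6% higher and 14.1% lower over all genes tested. Of 21 tested Notch genes, 5 were higher and 5 lower (median -0.02). Dll3, a Notch ligand-like protein of neural progenitors that blocks the pathway within the cell, read 1952, 1971 and 1909 at 8 h and 530.2, 471 and 586 at 24 h. The groups were widely apart (-1.85 ± 0.09 (SE), adjusted p = 1e-08). The receptor Notch2 fell by 0.98. Of 17 tested Wnt genes, 1 was higher and 4 lower (median -0.06), among them the Wnt enhancer Rspo1 (-1.72), the antagonist Wif1 (-2.37) and the receptor Fzd1 (-0.95). Of 23 tested TGF-beta and BMP genes, 2 were higher and 4 lower (median 0.04), with the ligand Tgfb3 up by 1.71. Of 15 tested genes of receptor tyrosine kinase feedback, 7 were lower and 2 higher (median -0.13). Etv5, an ETS factor induced by FGF signalling, read 1342, 798 and 1142 at 8 h and 331, 322 and 442 at 24 h, with no overlap (-1.52 ± 0.16 (SE), adjusted p = 1.8e-05), and the phosphatases Dusp4 and Dusp6, which switch off ERK, fell (-1.04 and -0.67). Of 25 tested genes of insulin-like growth factor and PI3K signalling, 7 were higher and 2 lower (median 0.10), including the ligand Igf1 (1.22) and the regulatory subunit Pik3r1 (0.71). Pde4d, a cyclic AMP phosphodiesterase and 1 of the 15 largest rises, read 32.5, 36.8 and 30.9 at 8 h and 293, 392 and 292 at 24 h, with no overlap (2.78 ± 0.16 (SE), adjusted p = 4.6e-08).

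Many genes of several biosynthesis lists were lower at 24 h. Of 29 tested genes of cholesterol and fatty acid synthesis, 17 were lower and none higher, with a median of -0.56. Fdps, which makes farnesyl diphosphate, read 614, 699.7 and 653 at 8 h and 96.3, 98.6 and 137 at 24 h. No 24 h value came within 4-fold of an 8 h value (-2.42 ± 0.13 (SE), adjusted p = 2.9e-08). Also lower were Idi1, the isomerase before it (-1.66), the squalene epoxidase Sqle (-1.12), Dhcr7, of the last step to cholesterol (-1.19), Hmgcs1, which feeds the pathway (-0.91) and the desaturase Scd2 (-0.79). Lipid uptake, storage and efflux genes went the other way, with 7 of 12 tested higher and none lower (median 0.55), among them the cholesterol exporter Abca1 (1.02), the lipid droplet protein Plin2 (1.16) and lipoprotein lipase, Lpl (1.76).

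Of 24 tested genes of serine, folate and amino acid supply, 13 were lower and 2 higher (median -0.37). Phgdh, the first enzyme of serine synthesis, read 1124, 1106 and 957 at 8 h and 321, 392 and 309.6 at 24 h, with the groups far apart (-1.60 ± 0.11 (SE), adjusted p = 2e-07). The amino acid transporter Slc7a5 and Cbs, of cysteine synthesis, fell (-1.41 and -1.36), while Gldc, of glycine cleavage, rose by 1.68. Of 34 tested ribosome biogenesis genes, 19 were lower and none higher (median -0.37), among them nucleolin, Ncl (-0.84), and the box C/D protein Nop58 (-1.08). In contrast, 2 of 20 tested ribosomal protein genes were higher and 2 lower (median 0.05). Of 28 tested genes of glycolysis and hypoxia, 11 were lower and 4 higher (median -0.27). The list's summed signal was 22902 to 26622 at 8 h and 17995 to 20585.5 at 24 h. It also ran from 20102.5 to 35949 over vehicle arrays and from 24432 to 35949 at 4 h of drug. Lower enzymes included lactate dehydrogenase, Ldha (-1.03), Pgk1 (-0.83) and Pgam1 (-0.78). Respiratory chain genes gave 14 lower and none higher of 30 tested (median -0.25), and 3 lower without the variance trend.

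Stress genes were more often lower than higher, and some mediators of cell death rose. Of 25 tested genes of the unfolded protein and heat shock responses, 14 were lower and 3 higher (median -0.43). Sdf2l1, an endoplasmic reticulum stress protein, read 1038, 1169.5 and 958 at 8 h and 261, 242 and 320.2 at 24 h, with no overlap (-1.89 ± 0.11 (SE), adjusted p = 8.4e-08). The folding enzyme Pdia6 and the chaperone Hsp90b1 fell (-1.26 and -1.24). Of 31 tested p53 target and apoptosis genes, 10 were higher (32.3%) and 4 lower (12.9%), with a median of -0.08. Over all genes tested the shares were 17.6% and 14.1%, so the lower count is near that share. Bcl2l11, the cell death activator BIM, read 1056, 869 and 805 at 8 h and 1637, 2252 and 1834 at 24 h. All 24 h values exceeded those of 8 h (1.05 ± 0.12 (SE), adjusted p = 3e-05, with 4 of 5 probe sets higher). The related activators Hrk and Bid rose by 1.02 and 0.57, and Gadd45g, a growth arrest gene, fell by 1.32. Immediate early genes had 9 of 23 tested higher and none lower (median 0.44), including Egr1 (1.03), Fosl2 (1.21) and Jund (0.91). Relative to 8 h, the list's median was 0.31 to 0.50 at 24 h and 0.20 to 0.41 in vehicle arrays, so these ranges overlapped. In the 2 vehicle arrays labelled 4 h it was 0.47 and -0.09. Of 17 tested clock genes, 4 were lower and none higher (median -0.07), among them the repressor Cry1 (-0.65), and of 17 tested glucocorticoid-responsive genes, 8 were higher and 4 lower (median 0.32). The lower ones included the metallothioneins Mt1 and Mt2, which bind zinc (-1.47 and -1.51).

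Macrophage markers rose in the same tumours, as did many genes of dead-cell clearance, lysosomes and chemokines. Tumour and host are both mouse, so the arrays cannot assign a rise to either. Of 30 macrophage and microglia markers, 29 were on the array and 26 tested, with 21 higher, 1 lower and a median of 1.02. Their summed signal was 5533 to 6096 at 8 h, 10164 to 15717 at 24 h and 57209 to 76151 at 48 h. Msr1, a scavenger receptor of macrophages, read 83.5, 109 and 131 at 8 h and 791, 473 and 679 at 24 h, each 24 h value well above those of 8 h (2.41 ± 0.18 (SE), adjusted p = 6.2e-07). The lysosomal glycoprotein Cd68 rose by 1.27, lysozyme, Lyz1, by 1.53, the pore-forming Mpeg1 by 1.40 and the complement gene C1qc by 1.01. Genes of dead-cell clearance gave 15 higher and 2 lower of 24 tested (median 0.73), including the scavenger Cd36 (1.70) and Tgm2 (2.12), a transglutaminase used in engulfment. Lysosomal genes gave 17 higher and none lower of 27 tested (median 0.50), with Ctsb, cathepsin B, at 1749, 1942 and 1905 at 8 h and 4947, 4187 and 4237 at 24 h, again with no overlap (1.25 ± 0.08 (SE), adjusted p = 1.9e-07). Of 21 tested chemokines and cytokines, 12 were higher and none lower (median 0.81), among them Ccl9 (2.15) and Csf1 (0.98), the macrophage growth factor. Interferon-responsive genes gave 8 higher and 1 lower of 27 tested (median 0.36). Of 17 neutrophil markers 14 were on the array and 3 tested, of 24 lymphocyte markers 20 were on the array and 3 tested, and none was called.

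Stromal markers rose as well. Fibroblast and matrix genes gave 22 higher and 2 lower of 27 tested, with a median of 1.02 and summed signals of 17657 to 21562 at 8 h and 33763 to 42901 at 24 h. Collagen Col1a1 rose by 1.52 and periostin, Postn, by 1.36. Pericyte and smooth muscle markers gave 8 higher and none lower of 11 tested (median 0.81), including the actin Acta2 (1.49) and Rgs5 (1.28), a pericyte regulator of G protein signals. Endothelial markers gave 11 higher and none lower of 20 tested (median 0.68), with Plvap, of vessel fenestrae, up by 1.02. When all 8 groups shared the fit, 4 were higher. Their summed signal was 1514 to 1717 at 8 h and 2270 to 3035 at 24 h. It was 1611 to 2397 in vehicle arrays, and 2605 and 2182 in the 2 vehicle arrays labelled 4 h.

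All 25 skeletal muscle markers were on the array, tested and called higher, each beyond 2-fold, with a median of 2.30. They made up 9 of the 15 largest rises of all, the other 6 being the slow myosin Myh7, Prph, Ccnd2, Pde4d, Chgb and Slc17a6. Their summed signal was 2367 to 5645 at 8 h and 15972 to 21550 at 24 h, but it also ran from 1328 to 15542 over the vehicle arrays and from 2972 to 20666 at 48 h. Ckm, the muscle creatine kinase, read 124, 72.9 and 63.6 at 8 h and 632, 918 and 884 at 24 h, with no overlap (3.03 ± 0.19 (SE), adjusted p = 1.4e-07). In the fit of all 8 groups its adjusted p was 0.055, that of the fast myosin Myh1 was 0.15, and 11 of the 25 markers were called. A marker could pass the filter through the 24 h arrays alone. The part of muscle tissue in other differences of this step was not tested.

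**Figure D3:**
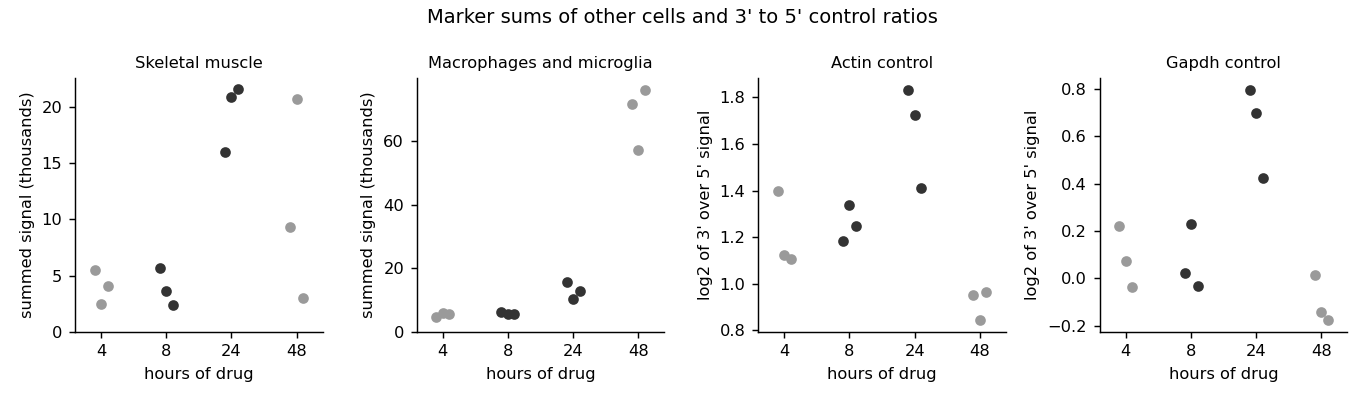
Summed signal of the skeletal muscle and macrophage marker lists, and log2 ratios of 3′ to 5′ control signals of actin and Gapdh, on each array by time of drug. Muscle signal is 15972 to 21550 on the 24 h arrays, macrophage signal keeps rising to 48 h, and both control ratios are highest at 24 h.

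The step was then set against the one before it, from 4 h to 8 h. The difference between the steps was tested on the 12 treated arrays, and 1467 of 29142 probe sets passed (5.03%), 665 more positive in the later step (2.28%) and 802 more negative (2.75%). Both steps share the 8 h arrays and differ in length. Among mitosis genes, 56 of 58 were more negative, with a median of -0.18 from 4 h to 8 h against -3.11 from 8 h to 24 h. Among replication genes, 8 of 45 were more negative and 1 more positive, with medians of -0.82 and -1.16. Pcna changed by -1.06 in the earlier step and -1.31 in this one, a difference that did not pass (adjusted p = 0.58), and Rrm2 changed by -0.98 and -2.69. Among neuronal genes, 11 of 37 were more positive and 1 more negative, with medians of 0.15 and 0.63. Leaving out replicate 1, 2 or 3 of 8 h brought the 1467 to 695, 940 and 731, and 469 passed when all 8 groups shared the fit, 107 more positive and 362 more negative.

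Against the step after it, from 24 h to 48 h, 5370 of 29429 probe sets differed (18.2%), 2463 upward (8.37%) and 2907 downward (9.88%). The steps share the 24 h arrays. Without replicate 2 of 24 h the count was 3004. Mitosis genes had a median of 0.35 in the next step, with 56 of 58 differing upward, and replication genes a median of 0.00 with 29 of 45 upward. The Hedgehog target list had a median of -0.41 from 24 h to 48 h. Gli2 changed by -1.64 (adjusted p = 1.4e-08) and Mycn by -1.02 (adjusted p = 1.6e-05) in that step, and the difference from this step passed for Gli2 (adjusted p = 6.2e-05). Atoh1 changed by -1.36 and Dll3 by -2.62 there. Neuronal genes had a median of 0.42, with 4 of 37 differing upward and 9 downward from this step, and Neurod1 at 6215 to 6616, Slc17a6 at 1416 to 1549 and Chgb at 7149.8 to 7391 at 48 h. Macrophage markers had a median of 2.67 in the next step, and 23 of 26 differed upward, C1qc by 2.97 and Cd68 by 2.82 in that step alone. Muscle markers had a median of -1.39 and 18 of 25 differing downward, and Fdps changed by 0.83. In the plot of list medians over time, mitosis is slightly lower at 8 h than at 4 h and low from 24 h on. Replication falls in every step to 24 h, and macrophage markers rise most after 24 h.

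**Figure D4:**
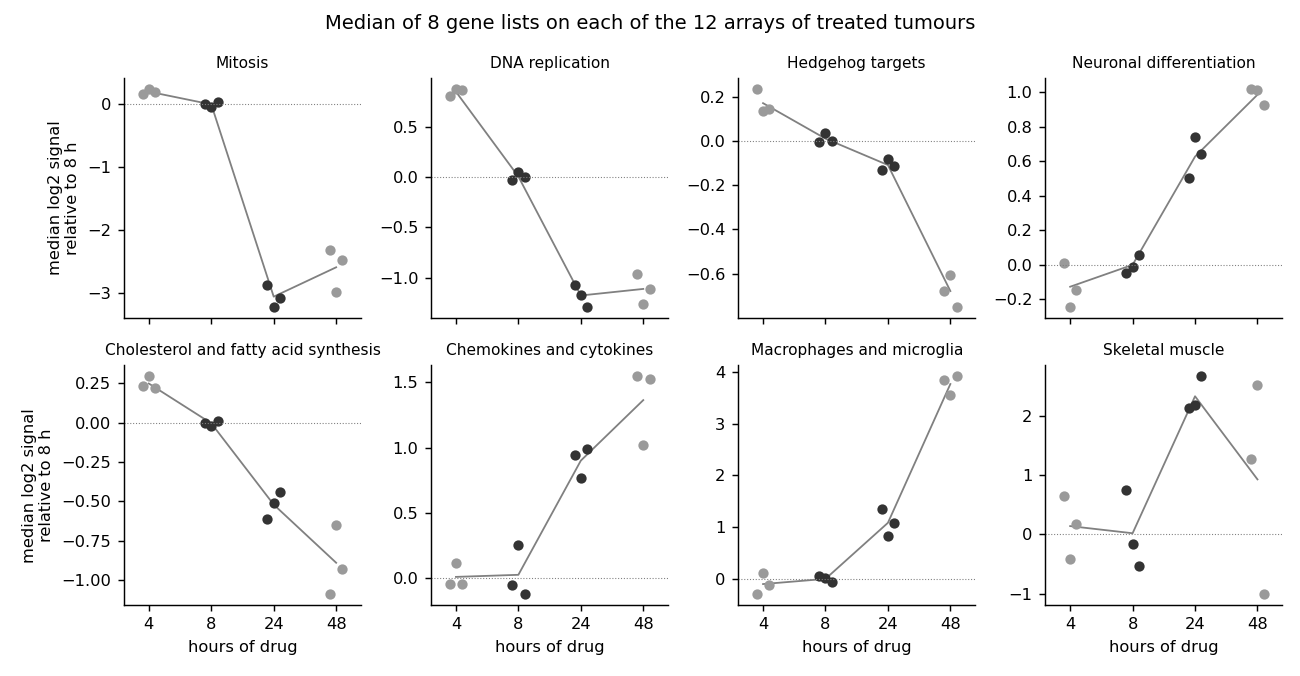
Median log2 signal of 8 gene lists on each of the 12 treated arrays, relative to the mean of the 8 h arrays, against hours of drug. Mitosis lies at -3.22 to -2.87 on the 24 h arrays, while replication lies at 0.81 to 0.88 on the 4 h arrays.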

How the data were processed

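RNA of tumour tissue was hybridised to Affymetrix mouse arrays, 1 array a sample. Per the submitters' processing notes, the authors processed the arrays with MAS5, and the deposited values are linear signal intensity with a 2% trimmed mean of 150 on every array. The design text names the 430A 2.0 array, whereas the 45101 probe sets are the layout of the Mouse 430 2.0 array. Arrays were grouped by description. Of 64 control probe sets, only those of actin and Gapdh were used, to gauge RNA integrity. Of all 45101 probe sets, controls included, 34958 had 1 gene symbol in the supplied annotation, 932 several and 9211 none. By an older symbol, 8 list genes were found. Log2(signal + 16) of the 3 + 3 arrays was fitted with limma 3.58.1 in R 4.3.3, with eBayes and its trend (degrees of freedom 4 residual and 8.96 prior). Tests were two-sided, with Benjamini-Hochberg adjustment over all tested probe sets. The neighbouring steps were fitted on 12 arrays with 1 mean a group. A gene is represented in a list by 1 probe set. The fit was tested on simulated data. The number of arrays limits the precision.

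Named genes are Hedgehog genes set by name (among them Gli1, Gli2, Ptch1, Hhip, Ccnd1, Mycn and Sfrp1), the 15 largest rises and 15 largest falls with a mean signal of at least 200 in the higher group and no overlap, and up to 6 called members of each list and direction by smallest p. The members and lists were chosen with earlier results of these data known. Samples with the same replicate number did not deviate together (correlations of -0.02, -0.01 and 0.00), so no pairing was used. Promoters and their coordinates come from RefSeq, build GRCm38.p6. Some genes are not reported here.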

Additional observations from a re-analysis of the deposited data

Results flagged for a closer look

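The step from 8 h to 24 h differed from its neighbours by a test of the difference itself. Against the step from 4 h to 8 h, 1467 probe sets differed, and mitosis genes made up the group with the widest gap between the steps among the lists drawn over time. Against the step from 24 h to 48 h, 5370 probe sets differed, with macrophage markers higher and muscle markers lower in the later step.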

How the results depend on the processing

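The count of 7555 probe sets stayed within 1.5 times under an offset of 1 (7291) or 64 (7660), without the filter (6129), with a 60th percentile filter (6956), after quantile normalization (7026), without the variance trend (5775) and with all 8 groups fitted together (5284), and ran from 5517 to 6753 when 1 array was left out. It was 4333 with the title run as a block and 4491 with replicate 1 of 24 h alone against 8 h. The share of higher calls among all calls, 55.3%, was 50.2% after quantile normalization, 49.5% with all 8 groups and 47% with replicate 1 alone. The replicate numbers do not pair the samples, and the replicate block gave 7342. The difference from the earlier step, 1467, was 766 without trend, 469 with all 8 groups and 695 to 1315 with 1 array left out. That from the later step, 5370, was 3452 with all 8 groups and 3004 to 5901 with 1 array left out. The 3′ to 5′ difference between the times was 0.40 for actin and 0.56 for Gapdh. Of 314 named probe sets, 85 lost their call with all 8 groups and 68 with the title run block. With replicate 1 alone, 63 of those that could be tested lost it. A few values that were not called changed sign. Cd8a was -0.078 with the title run block and -0.16 to 0.61 with 1 array left out, and G0s2 was 0.74 with the title run block or replicate 1 alone and -0.51 to 0.024 with 1 array left out. With 1 array left out, Bpgm ran from -0.13 to 0.043 and Car3 from -0.12 to 0.018. So did list medians, of Hedgehog targets (-0.21 to 0.0047), p53 targets (-0.10 to 0.0094), Wnt genes (-0.16 to 0.026) and oligodendrocyte markers (-0.12 to 0.26). The cause was not tested. Genes near background at 8 h or 24 h, such as Gli1, are limited by signal. The alternatives on list medians and list counts were chosen after seeing the data.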

Other observations

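Lists of other cells and processes are given beside 17.6% higher and 14.1% lower over all genes tested. Of 14 tested genes of iron and heme handling, 3 were higher and 1 lower: the iron exporter Slc40a1 rose by 1.24, heme oxygenase, Hmox1, by 1.16 and ferritin heavy chain, Fth1, by 0.40, while the iron importer Slc11a2 fell by 0.53 on the log2 scale. Of 11 tested genes of dendritic cells and antigen presentation, 4 were higher and none lower, the class I genes H2-K1 and H2-D1 by 0.55 and 0.35 and B2m by 0.42. Of 28 tested genes of the primary cilium, in which Smoothened acts, 2 were higher and 3 lower, no more than the shares over all genes, and the lower ones included the transport protein Ift20 (-0.50). Of 10 tested oligodendrocyte and Schwann cell genes, 3 were higher and 2 lower, with the lineage factor Olig1 down (-0.73) and myelin basic protein, Mbp, up (0.50). Of 8 tested adipocyte genes 2 were higher, and of 5 tested skin genes Krt10 alone was lower (-0.49). Of 11 erythroid markers 6 were on the array and 2 tested, and neither was called.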
